A study of Mus musculus with 8 samples.

Results

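The 9 genes described here encode the peroxisome proliferator-activated receptors (Ppara, Ppard and Pparg), the retinoid X receptors (Rxra, Rxrb and Rxrg), the PGC1 coactivators (Ppargc1a and Ppargc1b) and the estrogen-related receptor α (Esrra). They were chosen by name, with earlier results of these data known, and all 9 were found among 23504 gene symbols. The tissue was outer renal cortex of wild type mice of the strain C57Bl6/J, and RNA was sequenced in 4 libraries after a high fat diet and in 4 libraries after a control diet. Both diets were given for 9 weeks, starting at an age of 6 weeks, and tissue was taken at 15 weeks. The labels do not spell out the composition of the diets, the sex of the animals (all titles hold an M that is not explained) or whether the libraries of a diet are separate animals, so the p-values reflect spread between libraries that may be technical.

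PPARs are nuclear receptors that bind fatty acids and their derivatives, pair with an RXR on DNA and switch on genes of fatty acid uptake, storage and oxidation. PGC1 proteins bind no DNA themselves. They are recruited by PPARs, by ERRα and by other factors and raise transcription of genes of mitochondrial energy production. In the kidney cortex the proximal tubule, which runs on fatty acid oxidation, is known for abundant PPARα.

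Expected counts (estimated read counts per gene) summed to between 23503593 and 26291029 in the high fat libraries and between 26572175 and 30781585 in the control libraries. The ribosomal RNA precursor Rn45s took 4.82% to 13.3% of the counts of high fat libraries. It took 50.3% in control library J and 1.23% to 5.70% in the other control libraries. Rn45s was left out of all totals, which left 13993652 counts in control J and at least 21793784 in each other library. The markers of the proximal tubule were abundant, with summed levels of 30385 to 30813 normalised counts in a library scaled to 1000000 (CPM) in high fat libraries and 30399 to 31045 CPM in control libraries.

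Of the 9 genes, Ppara alone rose on the high fat diet and none fell, at a Benjamini-Hochberg adjusted p under 0.05 in edgeR's quasi-likelihood test over 14711 genes. In that test 9.99% of all genes were called, with 4.86% that rose and 5.13% that fell. All 9 genes passed the filter on low counts, and all 9 fitted log2 fold changes lay above 0, as did 49.5% of all tested genes. Their median was 0.15 against -0.0023 for all tested genes. At an unadjusted p under 0.05, Ppara, Rxra and Rxrg were higher in high fat cortex and none of the 9 was lower, where 27.4% of all genes passed in either direction and 13.3% were higher. DESeq2 and limma-voom likewise called Ppara as higher and none of the 9 as lower, beside 12.4% and 9.87% of all genes called in either direction.

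**Figure D1:**
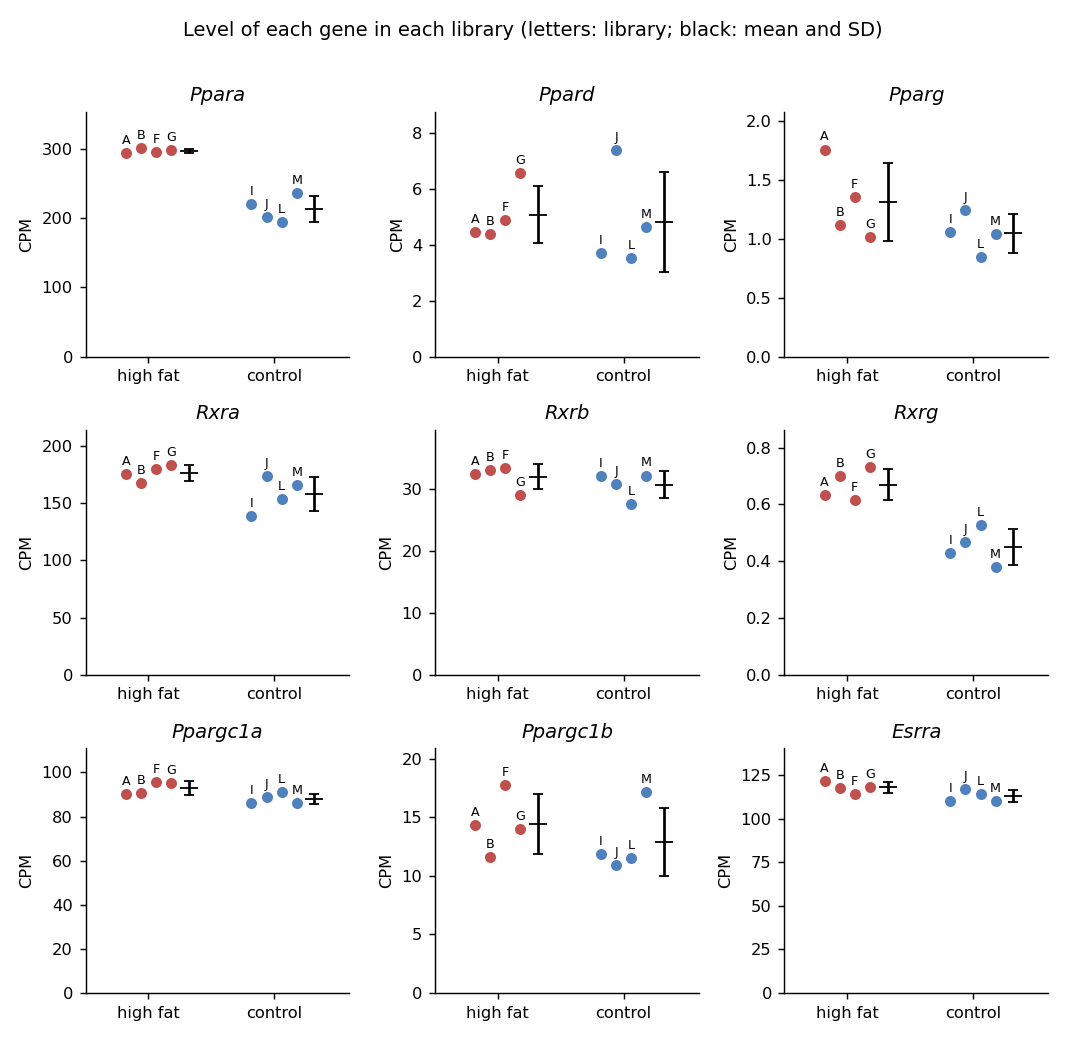
Level of each of the 9 genes in CPM (linear axes from 0), with high fat libraries on the left and control libraries on the right of each panel, letters naming the libraries and black bars giving mean and SD (n = 4 each). Ppara lies at 294 to 301 CPM in high fat libraries, above all control libraries at 194 to 236 CPM, and the other panel without overlap is that of Rxrg, which lies under 1 CPM.

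Ppara encodes PPARα, the receptor that switches on fatty acid oxidation in liver, heart and kidney. Its level was 294, 301, 295 and 298 CPM in high fat libraries A, B, F and G, against 220.4, 202, 194 and 236 CPM in control libraries I, J, L and M. Every high fat library lay above every control library. Ppara averaged 297 ± 3.40 CPM on the high fat diet and 213 ± 18.96 CPM on the control diet (SD, n = 4 each), a fold of 1.39 with a 95% interval of 1.26 to 1.54. The log2 fold change was 0.48 with a standard error of 0.064, and the edgeR adjusted p was 0.00235. The change was larger in size than that of 92.6% of tested genes.

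The 4 high fat libraries were close to each other in Ppara. Their coefficient of variation was 1.14%, beside a counting error of 1.21% at their depth, whereas the control libraries varied by 8.89% beside a counting error of 1.37%. Leaving out each library in turn kept Ppara called, with log2 fold changes of 0.44 to 0.53 and adjusted p-values up to 0.00908 in edgeR. In the authors' deposited table by gene symbol, which lists 1133 genes, Ppara has a fold of 1.40. The authors' deposited table by Ensembl gene lists 1175 genes and gives Ppara a fold of 1.38. Ppara is the only gene of the 9 in either table.

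In these bulk samples, more cells of a type and more RNA per cell cannot be told apart. The summed proximal tubule markers overlapped between the diets, with 1 of 10 called higher (Slc34a1) and 1 called lower (Cubn). The summed thick ascending limb markers were lower on the high fat diet without overlap, at 4325 to 5265 CPM against 5323 to 6008 CPM on the control diet, and 3 of these 6 markers fell (Slc12a1, Kcnj1 and Cldn16). The summed intercalated cell markers were also lower without overlap, at 187 to 211 CPM against 218 to 246 CPM, although none of the 6 was called. The sums of collecting duct principal cell markers overlapped, at 312 to 377 CPM in high fat and 331 to 447 CPM in control libraries, with 2 of 6 that fell (Scnn1g and Avpr2). The sums of mesangium and pericyte markers overlapped too, with 1 of 6 that fell (Acta2). Among all genes 5.13% fell. Of all tested genes, taken singly and not as sums, 9.2% were lower in every high fat library than in every control library. The part of these markers in the higher Ppara was not tested.

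The gene spans chr15:85734983-85802819 on the plus strand (GRCm38, GENCODE M21). Its RefSeq promoter window, chr15:85735526-85735825 of GRCm38.p6 on the plus strand, runs from 250 bases before the transcript start to 50 after it. It is shown because Ppara is the gene of the 9 that was called.
Ppara promoter: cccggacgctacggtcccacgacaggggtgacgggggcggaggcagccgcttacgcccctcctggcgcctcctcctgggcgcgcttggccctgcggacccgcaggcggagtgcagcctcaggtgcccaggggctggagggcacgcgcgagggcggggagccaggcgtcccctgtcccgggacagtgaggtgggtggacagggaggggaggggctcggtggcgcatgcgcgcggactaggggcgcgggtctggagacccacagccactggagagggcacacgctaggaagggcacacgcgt
Of these bases, 74.7% are G or C. On neither strand does the window hold AGGTCA, the core that nuclear receptors of these families recognise, the direct repeat of that core with 1 base between the copies (the PPAR and RXR element), or TCAAGGTCA (the ERR element), so no letters are in capitals. The repeat and the ERR element both contain the core. Among 32851 RefSeq promoter windows of the same length, 16.3% held the core, 0.0396% the repeat and 0.423% the ERR element. The absence of a match says only that these letters are not in this window.

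Ppard encodes PPARδ, a broadly expressed receptor that responds to fatty acids in muscle and many other tissues. It had 4.47, 4.38, 4.89 and 6.58 CPM in high fat libraries A, B, F and G, against 3.71, 7.39, 3.53 and 4.64 CPM in control libraries I, J, L and M. The highest value was in control J, and the diets overlapped. The fitted fold was 1.10 with a 95% interval of 0.785 to 1.54 (edgeR adjusted p = 0.735), so a change as large as that of Ppara lies inside the interval. The log2 fold change was 0.14 with all libraries and -0.015 without high fat G.

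Pparg encodes PPARγ, the receptor that drives fat cell formation. It had 1.76, 1.12, 1.36 and 1.02 CPM in high fat libraries A, B, F and G, against 1.06, 1.24, 0.847 and 1.04 CPM in control libraries I, J, L and M. The diets overlapped, and high fat A was the highest. These values rest on 24 to 39 counts in high fat libraries and 16 to 33 in control libraries. The fold was 1.28 (95% interval 0.923 to 1.77, edgeR adjusted p = 0.314). Transcripts antisense to Pparg (Gm44079) overlap 13176 bases of the gene and have no line of their own in the table, and the sources used here do not give whether counting used strand.

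Rxra encodes RXRα, the main RXR of liver and kidney epithelium and the partner of PPARα on DNA. It had 175, 167, 180.2 and 184 CPM in high fat libraries A, B, F and G, against 139, 174, 154 and 166 CPM in control libraries I, J, L and M. Control J lay inside the high fat range. The mean was 177 ± 6.96 CPM on the high fat diet and 158 ± 15.2 CPM on the control diet (SD, n = 4 each). The fold was 1.12 with a 95% interval of 1.00 to 1.24, and the edgeR adjusted p of 0.165 did not pass the threshold.

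Rxrb encodes RXRβ, which is found in most tissues. Its levels overlapped, at 32.5, 33.1, 33.5 and 29.0 CPM in high fat libraries A, B, F and G against 32.1, 30.9, 27.6 and 32.2 CPM in control libraries I, J, L and M. The fold was 1.04 (95% interval 0.937 to 1.16, edgeR adjusted p = 0.624).

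Rxrg encodes RXRγ, known mainly from muscle and brain. It had 0.632, 0.699, 0.616 and 0.731 CPM in high fat libraries A, B, F and G, against 0.430, 0.467, 0.529 and 0.379 CPM in control libraries I, J, L and M. The diets did not overlap, which with Ppara makes 2 of the 9 genes higher in every high fat library, where 8.31% of all tested genes were. The levels rest on 14 to 18 counts in high fat libraries and 6 to 15 in control libraries. Their coefficient of variation was 8.15% in high fat and 14.0% in control libraries, below counting errors of 25.4% and 30.2%. The spread between libraries thus understates the error of these levels. The fitted fold of 1.49 (95% interval 1.07 to 2.08) had an edgeR adjusted p of 0.157. With FPKM rescaled to a common total, an alternative chosen after seeing the data, limma gave Rxrg an adjusted p of 0.0425, where 2.83% of all genes were called. That fit uses the spread between libraries and takes no account of counting error.

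Of the RefSeq promoter windows of the 8 matched genes, 13 in all, 4 hold the core AGGTCA, and these belong to Pparg, Rxra and Rxrg. None of the 13 holds the repeat or the ERR element. The matches are shown with 10 bases on each side, on the strand of the gene, which is plus for all, with the core or its complement in capitals. The first base of the match lies 28 bases before the start in the Pparg window chr6:115360894-115361193 and 9 bases before it in the Pparg window chr6:115362099-115362398. It lies 87 and 48 bases before the start in the Rxra window chr2:27709042-27709341, and 88 bases before it in the Rxrg window chr1:167618015-167618314 (GRCm38.p6).
Pparg, 28 bases before the start: ccgccgcctcAGGTCAgagtcgcccc
Pparg, 9 bases before the start: ggacgcgaggAGGTCAagaaggggcc
Rxra, 87 bases before the start: gaaatgggtgTGACCTgagtaatggt
Rxra, 48 bases before the start: gtggcaggaaAGGTCAgtcactctct
Rxrg, 88 bases before the start: cggggttgaaAGGTCAgctgaaagct
A match is a description of the letters and not a site of binding. Windows were matched for 23 of the 32 PPARα target genes listed. Of these 26 windows, 8 hold the core, and none holds the repeat or the ERR element. The repeat and the ERR element are in 0.0396% and 0.423% of all windows. Finding none in so few windows therefore does not set either group of genes apart. Both counts of windows with the core stand beside 16.3% of all windows. Windows of the same gene recur among those with the core (Pparg and Plin5), so windows are not independent. No test was run on these counts.

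**Figure D2:**
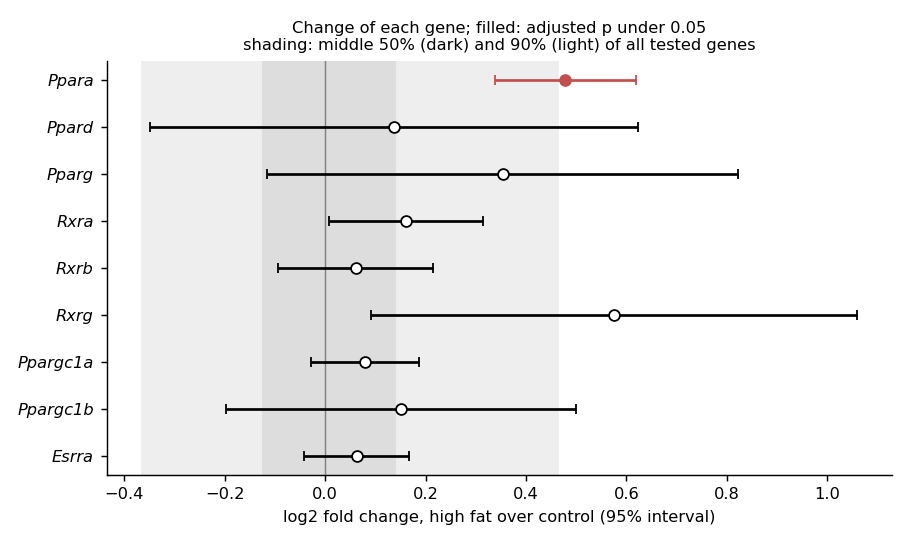
Fitted log2 fold change of each gene, high fat over control, with its 95% interval (horizontal bars), over shading for the middle 50% and 90% of all 14711 tested genes. Ppara, the filled point at 0.48, is the called gene and lies just beyond the upper bound of the light band at 0.46. The Rxrg point at 0.58 lies further out with an interval from 0.09 to 1.06.

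Ppargc1a encodes PGC1α, a coactivator of mitochondrial biogenesis that rises in fasting, cold and exercise in other tissues. It had 90.2, 90.5, 95.8 and 95.2 CPM in high fat libraries A, B, F and G, against 86.2, 88.7, 91.1 and 86.0 CPM in control libraries I, J, L and M. Control L lay inside the high fat range, so the diets overlapped. Its fold of 1.06 had one of the narrower intervals of the 9 genes, 0.981 to 1.14 (edgeR adjusted p = 0.324), which leaves out a change of the size fitted for Ppara.

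Ppargc1b encodes PGC1β, a relative of PGC1α that also acts on lipid synthesis genes in liver. It had 14.4, 11.6, 17.8 and 14.0 CPM in high fat libraries A, B, F and G, against 11.8, 10.97, 11.5 and 17.2 CPM in control libraries I, J, L and M. Control M stood apart from the other control libraries and lay near the highest high fat library. The fold was 1.11 (95% interval 0.871 to 1.41, edgeR adjusted p = 0.584). The log2 fold change was 0.15 with all libraries, 0.33 without control M (edgeR adjusted p = 0.132) and 0.033 without high fat F. The microRNA Mir378a lies within the gene on the same strand.

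Esrra encodes ERRα, an orphan receptor that works with PGC1 proteins on genes of the respiratory chain. It had 122, 118, 114 and 118 CPM in high fat libraries A, B, F and G, against 110.4, 117, 114 and 110.0 CPM in control libraries I, J, L and M. The diets overlapped at 114 to 117 CPM. The fold was 1.04 with an interval of 0.972 to 1.12 (edgeR adjusted p = 0.428). Trmt112 overlaps Esrra by 73 bases on the opposite strand and averaged 30.2 CPM, with an edgeR adjusted p of 0.700.

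Levels of different genes were compared per transcript length, as deposited FPKM divided by their total without Rn45s in each library and multiplied by 1000000. On this scale Esrra was the highest of the 9, at 106 ± 3.83 in high fat and 101 ± 3.18 in control libraries (SD, n = 4 each). Ppara followed at 80.0 ± 2.55 in high fat libraries, against 56.8 ± 7.45 in control libraries. Rxra averaged 66.9 ± 5.12 in high fat and 59.1 ± 5.68 in control libraries. Ppara was thus second and apart from Rxra on the high fat diet, while on the control diet the ranges of Rxra and Ppara overlapped. Ppargc1a at 28.6 and Rxrb at 25.5 in high fat libraries overlapped, as did their levels of 26.8 and 24.5 in control libraries. Ppargc1b, Ppard, Pparg and Rxrg followed in that order in both diets, each apart from its neighbours. They averaged 7.94, 3.18, 1.44 and 0.805 in high fat libraries, against 7.03, 2.94, 1.13 and 0.540 in control libraries. The order at the top depends on the length used. Ppara averaged 297 CPM in high fat and 213 CPM in control libraries on 3836 bases of exon. Esrra averaged 118 and 113 CPM on 4387 bases, and Rxra 177 and 158 CPM on 5462 bases. Per kilobase of exon, Ppara thus averaged above both in both diets.

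**Figure D3:**
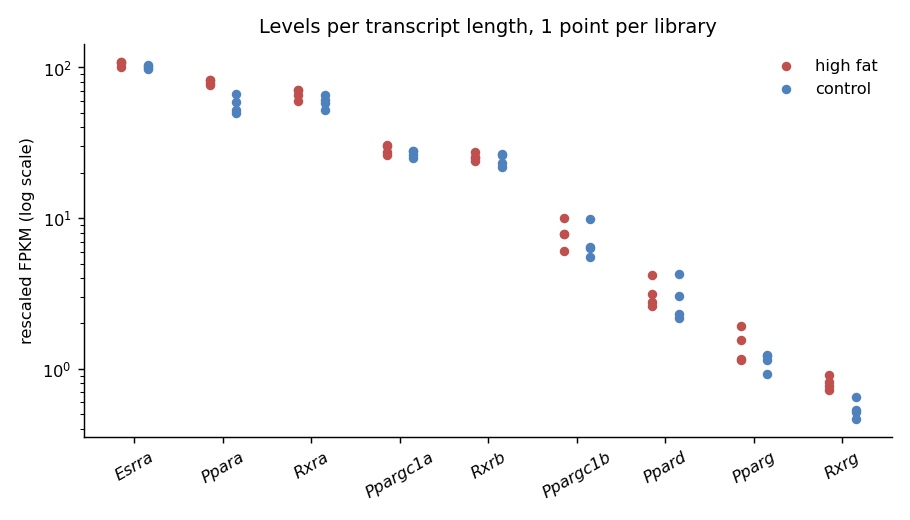
Rescaled FPKM (log axis) of each gene in each library, 1 point per library, high fat left of control, ordered by mean level. Esrra, at about 100, and Rxrg, under 1, mark the ends of the order, and the high fat points of Ppara, at 77.1 to 82.2, lie above its control points, at 49.9 to 66.5.

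Within each family, 1 gene made up most of the FPKM. Ppara supplied 94.6% ± 0.604 of the PPAR total in high fat libraries and 93.2% ± 2.09 in control libraries (SD, n = 4 each). Rxra supplied 71.7% ± 1.8 of the RXR total in high fat and 70.2% ± 2.74 in control libraries. Ppargc1a supplied 78.4% ± 2.62 of the PGC1 total in high fat and 79.4% ± 3.85 in control libraries. With CPM per kilobase of exon in place of FPKM, these shares were 98.6%, 79.5% and 79.7% in high fat libraries, against 98.2%, 78.4% and 80.6% in control libraries.

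The FPKM of Ppara divided by that of its partner Rxra was 1.2, 1.28, 1.16 and 1.16 in high fat libraries A, B, F and G, against 1.13, 0.826, 0.899 and 1.01 in control libraries I, J, L and M. These ratios did not overlap. The ratio of Ppara to Esrra did not overlap either, at 0.753 ± 0.0205 in high fat and 0.564 ± 0.0636 in control libraries (SD, n = 4 each). Ppara by itself did not overlap between the diets, so the ratios with Ppara on top are no separate result. The ratio of Ppargc1a to Esrra overlapped, at 0.269 ± 0.0143 in high fat and 0.266 ± 0.00556 in control libraries. No test was run on these ratios, and their size depends on the transcript lengths used.

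By the closeness of their centred log2 CPM over the 8 libraries, the genes most like Ppara among 10176 candidates were Gpam, with a root mean square difference of 0.0482, and Fbxo32, with 0.0530. Gpam, which catalyses the first step of triglyceride synthesis, averaged 210.5 ± 7.41 CPM in high fat and 150.1 ± 16.7 CPM in control libraries. Fbxo32, a ubiquitin ligase subunit known from muscle wasting, averaged 7.67 ± 0.120 CPM in high fat and 5.70 ± 0.311 CPM in control libraries (SD, n = 4 each). Their higher level on the high fat diet follows from their choice as the profiles nearest to Ppara over these libraries, and is no separate result.

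Genes that PPARα is known to switch on were higher on the high fat diet in part of the list. Of 32 such genes, 30 were tested, 9 rose, none fell and 21 did not pass, beside 4.86% of all genes that rose. The list's median log2 fold change was 0.30, with 28 of 30 above 0, against -0.0023 for all tested genes, of which 49.5% lay above 0. At an unadjusted p under 0.05 in edgeR, 15 were higher and none lower, beside 13.3% of all genes that were higher and 27.4% in either direction, and neither DESeq2 nor limma-voom called any as lower. The list was chosen with earlier results of these data known, so its excess over all genes is a description and no independent result.

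Pdk4, the kinase that blocks pyruvate entry into the citric acid cycle, had 37.2, 58.4, 17.8 and 21.7 CPM in high fat libraries A, B, F and G, against 10.3, 7.86, 4.80 and 5.37 CPM in control libraries I, J, L and M. All high fat libraries lay above all control libraries, and the log2 fold change was 2.27 (edgeR adjusted p = 0.00587). Plin5, which coats lipid droplets next to mitochondria, averaged 13.3 ± 3.90 CPM in high fat and 4.40 ± 1.49 CPM in control libraries (SD, n = 4 each), without overlap. Its log2 fold change was 1.57 (edgeR adjusted p = 0.00533). Cpt1a, the enzyme that commits fatty acids to mitochondrial import, averaged 751 ± 42.4 CPM in high fat and 553 ± 52.1 CPM in control libraries, with an edgeR adjusted p of 0.00634.

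Crat, which shuttles acetyl groups onto carnitine, averaged 191 ± 8.95 CPM in high fat and 156 ± 4.70 CPM in control libraries (SD, n = 4 each; edgeR adjusted p = 0.00851). Cpt2, the inner membrane partner of Cpt1a, averaged 184 ± 23.6 CPM in high fat and 129 ± 15.0 CPM in control libraries. Cpt2 rose, with an edgeR adjusted p of 0.0124. Angptl4, a secreted inhibitor of lipoprotein lipase, was called (edgeR adjusted p = 0.0324) although high fat F, at 40.3 CPM, lay below control I, at 44.9 CPM. Its call was lost in 5 of the 8 fits that left out a library (high fat A or B, or control J, L or M), with adjusted p-values up to 0.0797.

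Other known PPARα targets did not pass. Cyp4a14, a fatty acid hydroxylase, ranged from 5.59 to 131 CPM in high fat libraries and from 6.38 to 35.9 CPM in control libraries (adjusted p = 0.172, edgeR). High fat F was the lowest high fat library. The hydroxylase Cyp4a10 (adjusted p = 0.918), the peroxisomal enzyme Ehhadh (adjusted p = 0.290) and the mitochondrial dehydrogenase Acadm (adjusted p = 0.314) did not pass in edgeR. Fabp1, the liver fatty acid binding protein, averaged 0.330 CPM in high fat and 0.432 CPM in control libraries.

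The PPARα target list and Ppara were set side by side in each library. Among high fat libraries Ppara varied by 1.14%, beside a counting error of 1.21%. These libraries therefore cannot show whether the list follows Ppara. The median of the list, as log2 CPM minus each gene's mean over the libraries, was 0.17, 0.33, -0.14 and 0.18 in high fat libraries A, B, F and G. It was 0.02, -0.15, -0.06 and -0.27 in control libraries I, J, L and M. High fat F, with a Ppara level of 295 CPM, lay below control I and L. Control M had the highest control level of Ppara and the lowest list median. Each of these is 1 library, and whether the list follows Ppara was not tested. Without high fat F, 14 of the list rose, where 2.84% of all genes did. Without control J 6 rose, where likewise 2.84% of all genes did, and without high fat G and control J, the libraries with the highest red blood cell markers in their diet, 3 rose (Pdk4, Plin5 and Cpt1a), where 1.66% of all genes did. Ppara stayed called in all of these fits, at an edgeR adjusted p of 0.0232 without high fat G and control J.

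**Figure D4:**
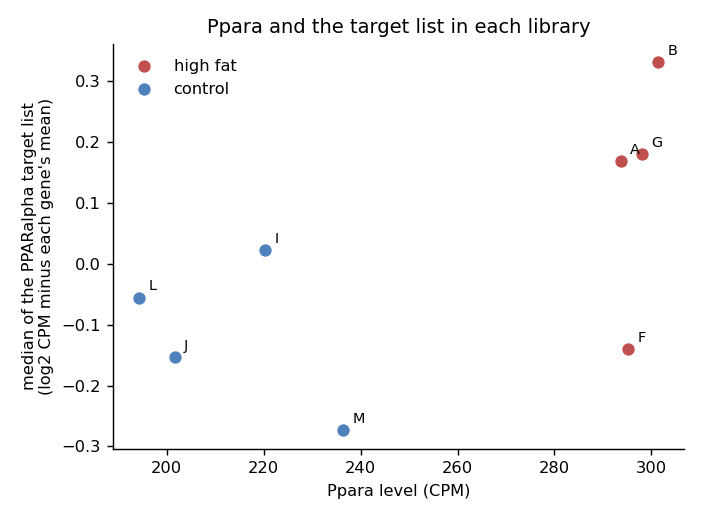
Level of Ppara in each library (CPM, horizontal axis, which does not start at 0) against the median of the 30 tested PPARα target genes (log2 CPM minus each gene's mean, vertical axis), with letters naming the libraries. High fat A, B and G lie at the upper right at medians of 0.17 to 0.33, and high fat F lies at the right with a median of -0.14, inside the range of the control libraries.

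Mitochondrial genes that PGC1 proteins and ERRs are known to activate had no called gene when all libraries were used. Of 20 such genes tested, none rose and none fell in edgeR, DESeq2 or limma-voom. These called 9.99%, 12.4% and 9.87% of all genes, so the lack of calls in a list this short does not set it apart. In edgeR 3 passed an unadjusted p under 0.05, 2 of them higher, beside 27.4% of all genes in either direction. The median log2 fold change was 0.01. Leaving out a library brought at most 1 call, Ogdh higher without high fat B or Idh3a lower without control M. Tfam, the packaging factor of mitochondrial DNA, averaged 48.8 ± 3.10 CPM in high fat and 48.3 ± 4.02 CPM in control libraries (SD, n = 4 each; edgeR adjusted p = 0.933).

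Of 13 partners and relatives of the PGC1 proteins other than the 9 genes, 1 rose and 1 fell, beside 4.86% and 5.13% of all genes. Counts this small do not set the list apart from all genes. Prkaa2, a catalytic subunit of the energy sensor AMPK, averaged 349.6 ± 21.2 CPM in high fat and 292 ± 10.5 CPM in control libraries (SD, n = 4 each; edgeR adjusted p = 0.0195). Its call was lost without high fat A or G or control J, with adjusted p-values up to 0.0544. The gene listed as 2310042D19Rik, for which RefSeq gives the synonym Perm1 and which is known from muscle as a PGC1 and ERR induced regulator, averaged 5.01 ± 0.800 CPM in high fat and 8.11 ± 1.72 CPM in control libraries (edgeR adjusted p = 0.0313). It was called in 2 of the 8 fits that left out a library, those without control L or M.

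Both relatives of Esrra missed the threshold. Esrrb, the relative ERRβ, averaged 16.0 ± 1.74 CPM in high fat and 21.0 ± 3.10 CPM in control libraries (SD, n = 4 each; edgeR adjusted p = 0.0524). Esrrg, the relative ERRγ, averaged 78.2 ± 13.3 CPM in high fat and 62.4 ± 3.46 CPM in control libraries (edgeR adjusted p = 0.0726). DESeq2 called both, Esrrb lower and Esrrg higher. EdgeR with all libraries called Esrrb when set to robust fitting, no filter on low counts or library totals only, at adjusted p-values of 0.0463, 0.0429 and 0.0392. It also called Esrrb without high fat G or control L, at adjusted p-values of 0.0465 and 0.0350, and Esrrg without high fat A or B, at 0.0398 and 0.0482. The PGC1-related coactivator Pprc1 (adjusted p = 0.908), the respiratory factor Nrf1 (adjusted p = 0.337) and the deacetylase Sirt1 (adjusted p = 0.563) did not pass in edgeR. Hnf4a, a receptor of proximal tubule and liver identity, averaged 944 ± 38.9 CPM in high fat and 1040.5 ± 58.9 CPM in control libraries (edgeR adjusted p = 0.162).

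None of the 12 tested partners of RXR other than PPARs was called in edgeR or limma-voom, which called 9.99% and 9.87% of all genes. The lack of calls in a list this short does not set it apart. Its median log2 fold change was 0.03, with 1 gene at an unadjusted p under 0.05 in edgeR, which 27.4% of all genes passed. That gene was Vdr, the vitamin D receptor, at 269 ± 38.0 CPM in high fat and 205 ± 34.9 CPM in control libraries (SD, n = 4 each; edgeR adjusted p = 0.0722). DESeq2 called Vdr, as did edgeR without control M. Nr1h3, the oxysterol receptor LXRα, had an edgeR adjusted p of 0.929.

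Of 15 coactivators and corepressors, 2 rose and none fell, with a median log2 fold change of 0.05, beside 4.86% of all genes that rose. The same 2 were those at an unadjusted p under 0.05, which 27.4% of all genes passed, so the counts do not set the list apart from all genes. Tbl1xr1, which exchanges corepressors for coactivators, averaged 94.7 ± 4.58 CPM in high fat and 74.6 ± 5.77 CPM in control libraries (SD, n = 4 each; edgeR adjusted p = 0.0108). Lpin1, a phosphatidate phosphatase that also binds PPARα and PGC1α, averaged 177 ± 16.4 CPM in high fat and 137 ± 10.8 CPM in control libraries (edgeR adjusted p = 0.0144). Both calls were lost without high fat G and control J, at edgeR adjusted p-values of 0.0536 and 0.0847, and with FPKM as deposited or rescaled. The corepressors Nrip1 (adjusted p = 0.680) and Ncor1 (adjusted p = 0.297) and the mediator subunit Med1 (adjusted p = 0.520) did not pass in edgeR. Of 5 fatty acid binding proteins tested, which carry ligands to PPARs, Fabp7 fell, at 3.27 ± 0.345 CPM in high fat and 6.03 ± 0.453 CPM in control libraries (edgeR adjusted p = 0.00208), and the other 4 did not pass, beside 5.13% of all genes that fell.

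Of 14 genes that PPARγ is known to activate in fat cells, 10 were tested and 3 rose, beside 4.86% of all genes, with a median log2 fold change of 0.28. None fell in edgeR, DESeq2 or limma-voom, and all 5 at an unadjusted p under 0.05 were higher, as were 13.3% of all genes. This list too was chosen with earlier results of these data known, so these counts are a description and no independent result. Pck1, which the proximal tubule uses for glucose synthesis, averaged 4334 ± 516 CPM in high fat and 2649 ± 198 CPM in control libraries (SD, n = 4 each; edgeR adjusted p = 0.00228). Ucp2, a mitochondrial carrier, averaged 42.0 ± 12.6 CPM in high fat and 20.2 ± 2.85 CPM in control libraries (edgeR adjusted p = 0.00657). Lipe, the hormone-sensitive lipase, averaged 26.4 ± 1.67 CPM in high fat and 19.6 ± 1.40 CPM in control libraries (edgeR adjusted p = 0.00650).

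RNA of fat tissue was at or near 0 by the markers Adipoq and Ucp1. Adipoq averaged 0.0218 CPM in high fat and 0.0879 CPM in control libraries, and Ucp1, which defines brown fat, 0.281 CPM in high fat and 0.287 CPM in control libraries. The summed white adipocyte markers overlapped, at 402 to 641 CPM in high fat and 352 to 558 CPM in control libraries, and nearly all of it was Lpl and Fabp4, which other cells also express. The summed brown adipocyte markers overlapped too, at 8.09 to 10.4 CPM in high fat and 7.23 to 11.1 CPM in control libraries. Nearly all of that sum was Cox7a1, which averaged 8.89 CPM in high fat and 8.82 CPM in control libraries. Fabp4 averaged 38.8 ± 1.78 CPM in high fat and 34.5 ± 3.53 CPM in control libraries (SD, n = 4 each; edgeR adjusted p = 0.172).

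**Figure D5:**
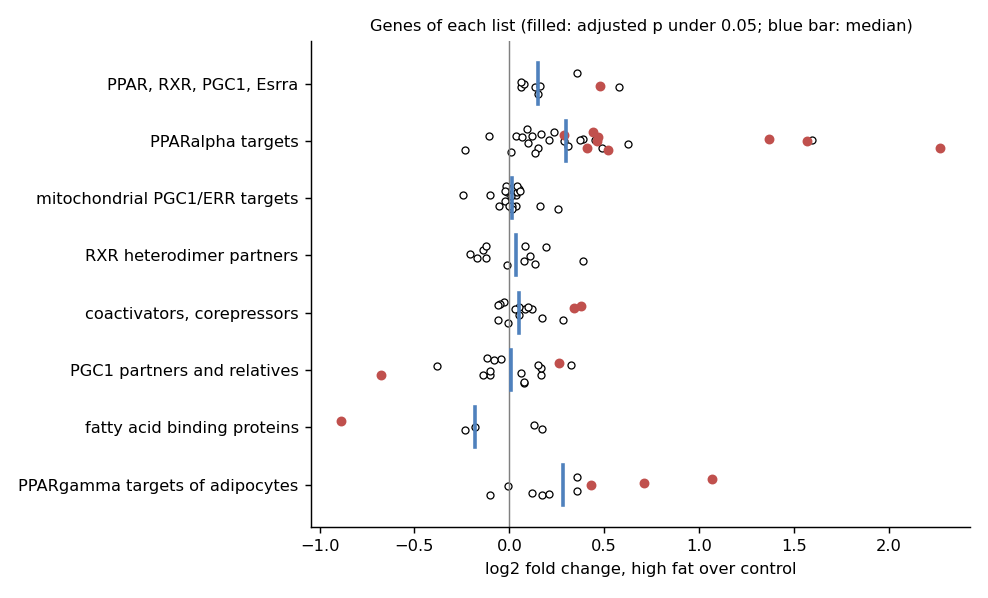
Fitted log2 fold change, high fat over control, of each tested gene in the 9 receptor and coactivator genes (top) and in 7 related lists, with filled points for an adjusted p under 0.05 and a blue bar at each list's median. The PPARα targets lie mostly right of 0 with a median of 0.30, and the mitochondrial PGC1 and ERR targets gather around a median of 0.01; the list of PGC1 partners drawn here includes 3 of the 9 genes.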

How the data were processed

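The 9 genes and the related lists were chosen with earlier results of these data known. The submitters' processing notes name CASAVA 1.8.2, RSEM 1.2.9 and the build mm10. The authors deposited RSEM expected counts, which RSEM estimates by sharing reads between similar genes, and FPKM per gene symbol. The deposited comparison tables give a fold, the ratio of high fat to control, with a posterior probability as a score. Per the labels, ribosomal RNA was removed (Ribo-Zero Gold) from 1 ug of RNA.

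Expected counts were rounded, Rn45s was removed, and genes kept by filterByExpr entered edgeR 4.0.16 under R 4.3.3 (quasi-likelihood F test, TMM, diet as the only term, p adjusted over 14711 genes). Standard errors are the log2 fold change over the square root of F, and intervals use the t distribution with edgeR's degrees of freedom. CPM are TMM-normalized. Counting errors cover read sampling only, so genes under 1 CPM are imprecise. The scripts were tested on simulated data. Rescaled FPKM was added after seeing the data. Alternatives used DESeq2 1.42.0, limma 3.58.1, other scalings and filters, and fits without each library. Library letters differ between the diets, so nothing was paired. Named besides the 9 genes were up to 4 called genes with the smallest p per list, a fixed set of related genes whatever their result, and the 2 genes nearest to each called member. Slc34a1, Cubn, Slc12a1, Kcnj1, Cldn16, Scnn1g, Avpr2, Acta2, Ogdh, Idh3a, Lpl, Cox7a1 and Trmt112 were named after their values were seen. Promoter windows came from RefSeq (GRCm38.p6), which matched 8 of the 9 genes. Protein sequences were not used here. Results for 2 genes of the PPARα target list are not reported here by name, although they are in its counts and median.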

Additional observations from a re-analysis of the deposited data

Results flagged for a closer look

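Ppargc1b in control M, at 17.2 CPM, stood apart from the other control libraries at 10.97 to 11.8 CPM. Rn45s took 50.3% of the counts of control J and 1.23% to 5.70% in the other control libraries. The summed red blood cell markers were 4194 CPM in high fat G and 808 to 1049 CPM in the other high fat libraries. They were 1837 CPM in control J and 742 to 801 CPM in the other control libraries. The summed endothelial markers were 446 CPM in high fat G and 419 to 421 CPM in the other high fat libraries. These 5 came from 48 groups of 4 values examined for a value far from the rest, and chance gives about 1 in 20. Without high fat G and control J, Ppara stayed called at an edgeR adjusted p of 0.0232.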

How the results depend on the processing

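Ppara was higher on the high fat diet in all 21 alternatives and called in 18. The 3 that lost it used FPKM as deposited, whose values in control J are lowered by its Rn45s share: with log2(FPKM + 0.1), log2(FPKM + 1) and log2(FPKM + 0.1) without a filter, its log2 fold change was 0.64, 0.62 and 0.64 (limma adjusted p = 0.999, 0.721 and 1.0), and 0 of the 9 genes rose. These shifted the median of all genes by 0.14, 0.11 and 0.12, so Ppara relative to it was 0.50, 0.51 and 0.52. Of the calls, 68.5% and 67.5% were higher in the filtered fits, against 48.7% in edgeR. With rescaled FPKM, 2 of the 9 rose (Ppara and Rxrg). Of the other genes, Ppard turned to -0.015 without high fat G and was at most 0.36 (without control J) when 1 library was left out. PPARα targets that rose numbered 4, 4 and 0 with FPKM, 5 with rescaled FPKM, 3 without high fat G and control J, and 6 to 14 when 1 library was left out. Among all genes, 74, 54 and 1 rose and 34, 26 and 1 fell with FPKM, 201 rose and 205 fell with rescaled FPKM, 244 rose and 173 fell without high fat G and control J, and 421 rose and 566 fell with library totals as the only scaling. Leaving out 1 library gave 421 to 759 genes that rose and 318 to 769 that fell, and Ppara log2 fold changes of 0.44 to 0.53. The causes of these differences were not tested. No paired analysis was possible because the diets share no library letter. Depth limits Rxrg and Pparg, which rest on fewer than 40 counts per library.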
